A study of Mus musculus with 6 samples.

Results

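Autophagy genes and the TFEB-family factors tied to them were followed in macrophages of Ube3a knockout and wild-type mice. The set holds 46 genes: the kinase complexes that start autophagy, the machinery that conjugates ubiquitin-like proteins to membrane lipid, the cargo receptors, a pair of fusion factors, the TFEB-family transcription factors and parts of the kinase complex mTORC1. Members are rows matched by gene symbol to a list of pathway genes, in a table of 16836 genes, and all 46 had a row. Bone marrow-derived macrophages, matured in culture from marrow precursors, came from Ube3a knockout mice (KO, written Ube3a-/- in the labels) and from their wild-type littermates (WT). Each genotype had 3 libraries. The labels name no treatment for either group and give no strain, age, sex or design of the knockout allele. Ube3a encodes an E3 ubiquitin ligase.

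Macroautophagy wraps cytoplasm in a double membrane and delivers it to the lysosome. The ULK1 kinase complex starts the process, a lipid kinase complex around BECN1 and PIK3C3 marks the membrane, and ATG conjugation enzymes attach LC3 and GABARAP proteins to it, where cargo receptors such as p62 (Sqstm1) bind. When amino acids are plentiful, mTORC1 on the lysosome restrains ULK1 and keeps TFEB, TFE3 and MITF in the cytoplasm, and when they are scarce these factors enter the nucleus and drive lysosome and autophagy genes. In macrophages the same machinery also serves the degradation of engulfed material and of intracellular bacteria. Much of this control acts on proteins and their location, which RNA levels do not measure.

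The libraries held 25454862 to 35517269 reads on the genes of the table. Levels are given as CPM, read counts scaled to a common depth with the authors' adjusted library sizes. A gene was tested if 3 or more libraries reached 1 CPM, which left 12118 genes. The targeted gene stood at 69.7, 61.2 and 77.0 CPM in KO replicates 1 to 3 and at 207.1, 193.7 and 177.6 CPM in WT replicates 1 to 3 (log2 fold change −1.47, limma with Benjamini-Hochberg adjustment, adjusted p = 0.00444). All 10 macrophage markers looked for, among them Adgre1, Csf1r and Cd68, passed the filter and summed to 14031 to 16649 CPM in KO and 15214 to 16015 CPM in WT. The markers of T and NK cells, of red cells, and of mast cells and basophils had no row in the table. Neutrophil markers summed to 2.88 to 10.5 CPM in KO and 5.06 to 16.8 CPM in WT. Cd34, a progenitor marker, stood at 24.5 to 34.0 CPM in KO and at 77.3, 28.9 and 74.1 CPM in WT replicates 1 to 3. The progenitor marker Cdk6 did not follow it, with overlapping genotypes at 564.9 to 691.9 CPM in KO and 595.6 to 714.5 CPM in WT. Kit, Myb, Gata2 and Flt3, the other progenitor markers looked for, did not pass the filter. KO replicate 2 and WT replicate 2 stood apart from the other libraries in Xist, with 28 and 14 reads against 30161 to 42232. Within each genotype, therefore, not all libraries came from the same mouse. Whether the other 2 libraries of a genotype stem from different mice is not in the labels, and the spread between those may be technical. In cultures of many cells, a change in the share of a cell type cannot be told apart from a change in RNA per cell.

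None of the 46 autophagy and TFEB-family genes passed the test for a difference between genotypes, and nearly all estimates were bounded within 1.5-fold. All 46 passed the filter, with 181 to 19342 reads per gene and library. The test was limma's, applied to log2(CPM + 1). Fold changes of the lowest genes come out slightly too small on it. A gene was called changed at an adjusted p under 0.05. The members' adjusted p ran from 0.866 to 0.994, so 0 of 46 passed, where 0.0165% of all tested genes did (0.00825% higher and 0.00825% lower in KO), and limma-voom on the underlying reads called 0 as well. Log2 fold changes of KO over WT ran from −0.18 for Mitf to 0.24 for Calcoco1. The 95% interval stayed inside 1.5-fold in either direction for 45 of the 46 members. The same held for 94.7% of the tested genes in the same range of WT levels. The exception among the members was the receptor gene Optn, whose interval reached 1.54-fold. Inside 1.25-fold lay the intervals of 29 members, or 63.0%, against 64.7% of the tested genes in that range. An unadjusted limma p under 0.05 was reached by 4 members, or 8.70%, against 4.13% of all tested genes. Of these, Calcoco1, Rubcn and Gabarap were higher in KO (1.68% of all tested genes were higher by this rule) and Mitf was lower (2.44%). The median log2 fold change was 0.06, with 33 members positive and 13 negative, beside a median of 0.00 and 50.4% positive over all tested genes.

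**Figure D1:**
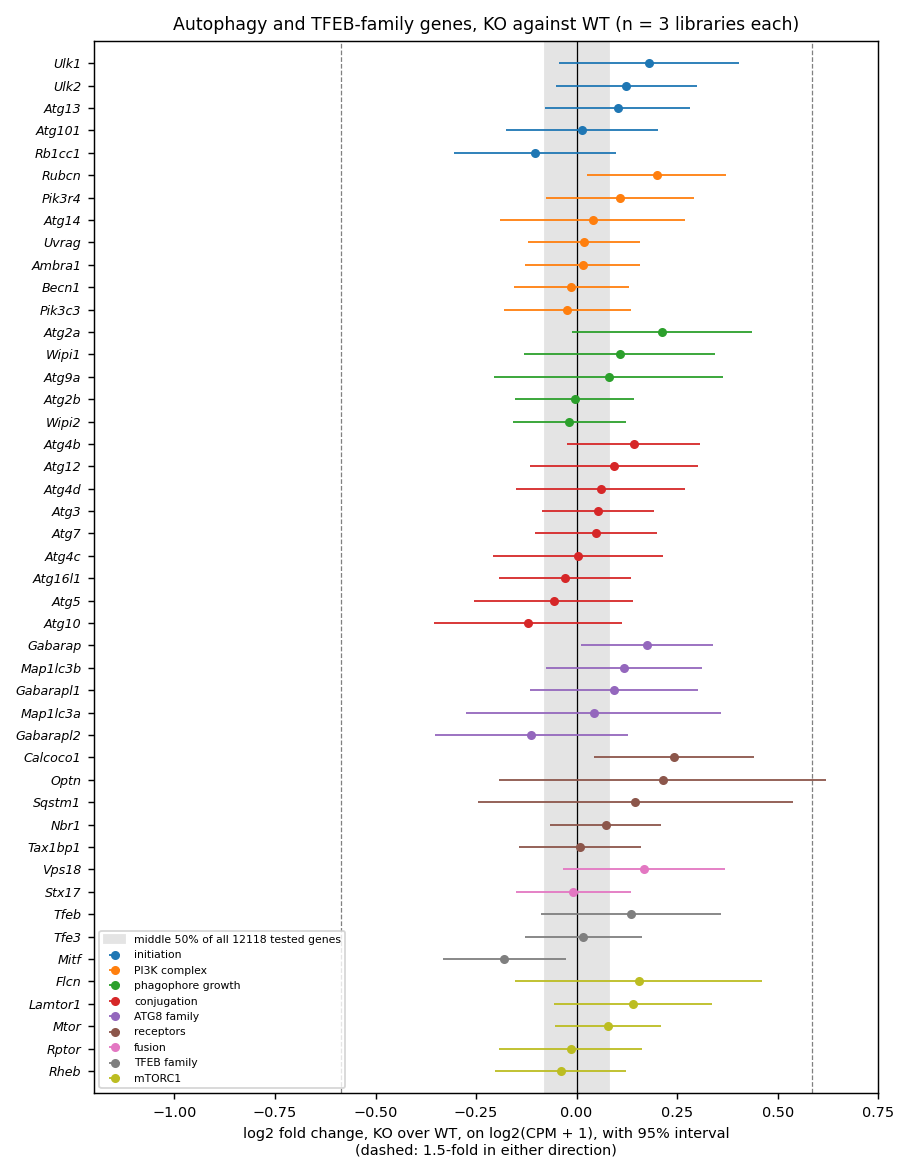
Log2 fold change of KO over WT on the log2(CPM + 1) scale for each of the 46 genes, grouped by role, with 95% intervals from limma and n = 3 libraries per genotype. Estimates lie between −0.18 (Mitf) and 0.24 (Calcoco1), and every interval but that of Optn lies inside the dashed lines at 1.5-fold.

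The number of members with a small unadjusted p depended on the libraries included. It was 13 without WT replicate 2 (28.3% of members against 10.6% of all tested genes), 6 without KO replicate 3 (13.0% against 5.46%), 1 without WT replicate 3 (2.17% against 3.19%), and 0 without KO replicate 2 (2.16% of all tested genes) or without WT replicate 1 (1.23%). Without KO replicate 1 the number stayed at 4 (8.7% against 4.21%), with Wipi1 and Ulk1 in place of Rubcn and Gabarap. In 5 members, or 10.9%, the genotypes did not overlap, against 9.95% of all tested genes. These were Rubcn, Gabarap, Calcoco1 and Mtor, higher in KO (4.41% of all tested genes), and Mitf, lower in KO (5.55%). With 1 library left out, the share of members without overlap was below that of all tested genes in 4 of 6 fits and above it in 2. It was 17.4% against 19.7% without KO replicate 1, 10.9% against 15.5% without KO replicate 2, 13% against 13.4% without WT replicate 1, and 17.4% against 20.9% without WT replicate 3. It was 26.1% against 24.2% without KO replicate 3, and 47.8% (22 members) against 30.1% without WT replicate 2.

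The 3 TFEB-family members differed in level and in the sign of their estimates. Tfeb (chromosome 17: 47737030 to 47792419, plus strand, GRCm38), the best-known driver of lysosome genes, stood at 23.2, 26.0 and 23.5 CPM in KO replicates 1 to 3 and at 21.2, 20.1 and 24.8 CPM in WT replicates 1 to 3. WT replicate 3 lay above 2 of the 3 KO libraries, and the log2 fold change was 0.14 ± 0.10 (SE, n = 3 per genotype). The Tfeb estimate was 0.07 without WT replicate 2, 0.09 without KO replicate 2 and 0.22 without WT replicate 3, and 0.02 without KO replicate 2 and WT replicate 2 together. Tfe3 (chromosome X: 7762560 to 7775202, plus strand), its close relative, stood at 130.2, 135.7 and 122.1 CPM in KO and at 127.8, 123.6 and 131.8 CPM in WT. The Tfe3 values of both genotypes were interleaved, with a log2 fold change of 0.02 and a 95% interval of −0.13 to 0.16. Mitf (chromosome 6: 97807052 to 98021349, plus strand), best known as a factor of pigment cells and osteoclasts, stood at 64.1, 60.4 and 64.2 CPM in KO and at 76.3, 69.0 and 69.1 CPM in WT. All 3 KO libraries lay below all 3 WT libraries, at 88.0% of the WT mean, with a log2 fold change of −0.18 ± 0.07 (limma with Benjamini-Hochberg adjustment, adjusted p = 0.866). WT replicate 1 was the highest library for Mitf, and without it the log2 fold change was −0.13. Tfec, the remaining gene of the family and not among the 46, had an estimate of −0.07.

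TFEB-family factors bind the CLEAR element, a promoter sequence whose core is CACGTG. This core, which reads the same on both strands, was searched in RefSeq promoter windows of GRCm38.p6, from 250 bases before to 50 after each start site. Windows were at hand for 40 of the 46 genes, and 7 of these held the core, or 17.5%, against 12.1% of the 8841 tested genes with a window and 8.09% of all 27025 genes in the promoter table. The longer form TCACGTG, on either strand and containing the core, was found for 6 members, or 15%, against 7.33% of the tested genes. The stretches around the core are shown 5′ to 3′ on the strand of the gene, with the core in capitals, because they are the positions at which a TFEB-family factor could be looked for.
Rubcn, chr16:32868437-32868466, minus strand: cgcctagcacatCACGTGtacccaggttag
Atg3, chr16:45158723-45158752, plus strand: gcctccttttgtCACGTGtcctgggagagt
Atg3, chr16:45158746-45158775, plus strand: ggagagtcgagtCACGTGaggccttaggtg
Atg7, chr6:114670952-114670981, plus strand: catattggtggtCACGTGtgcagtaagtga
Atg14, chr14:47568418-47568447, minus strand: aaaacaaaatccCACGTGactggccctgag
Atg5, chr10:44268313-44268342, plus strand: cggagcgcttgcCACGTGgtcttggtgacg
Lamtor1, chr7:101905757-101905786, plus strand: ctgccttcctatCACGTGccgcgggtccgc
Rheb, chr5:24842440-24842469, minus strand: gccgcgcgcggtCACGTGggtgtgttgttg
Atg3 held the core at 2 positions, which began 94 and 71 bases before its start site, and Rubcn held it in 1 of its 2 windows. Atg5 alone among the 7 had the core without the longer form. The log2 fold changes of the 7 genes had a median of 0.05 (−0.06 to 0.20), with 5 positive, and those of the 33 members with a window but no core had a median of 0.08 (−0.18 to 0.24), with 26 positive. A match describes these letters and is not a bound site.

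Among mTORC1 and its lysosomal regulators, none of 5 genes passed the test, and 3 had positive estimates. Mtor (chromosome 4: 148448611 to 148557683, plus strand), the kinase itself, stood at 82.1, 86.7 and 82.6 CPM in KO replicates 1 to 3 and at 77.3, 80.6 and 79.9 CPM in WT. The genotypes did not overlap, yet the KO mean was only 1.06 times the WT mean, and the log2 fold change of 0.08 had an interval of −0.05 to 0.21. Lamtor1 (chromosome 7: 101905904 to 101926675, plus strand, 42.6 Mb from Ube3a), which anchors the Ragulator complex on the lysosome, stood at 96.7, 107.4 and 94.0 CPM in KO and at 81.6, 97.8 and 91.2 CPM in WT. WT replicate 2 lay above KO replicates 1 and 3, and the log2 fold change was 0.14 ± 0.09. Flcn, the folliculin gene, whose product controls the access of TFEB to mTORC1, had 0.15 with an interval of −0.15 to 0.46. For Rptor, the scaffold that brings in substrates, the estimate was −0.02, and for the small GTPase Rheb, the activator of mTORC1, it was −0.04.

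None of the 5 initiation genes passed the test, and 4 had positive estimates. Ulk1 (chromosome 5: 110784488 to 110810097, minus strand), the starting kinase, stood at 30.8, 37.9 and 33.1 CPM in KO and at 27.6, 32.2 and 29.7 CPM in WT. KO replicate 2 was the highest and WT replicate 2 lay above KO replicate 1, with a log2 fold change of 0.18 ± 0.10 and an interval of −0.04 to 0.40. Ulk2, a second kinase of this kind, stood at 77.2, 77.7 and 75.6 CPM in KO and at 69.2, 77.8 and 64.9 CPM in WT. WT replicate 2 was level with the KO libraries, while the other WT libraries were lower, and the log2 fold change was 0.12 ± 0.08. The estimate was −0.10 for the scaffold Rb1cc1 (FIP200), 0.10 for the adaptor Atg13 and 0.01 for the adaptor Atg101.

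Of the 7 genes of the lipid kinase complex, Rubcn had the estimate farthest from 0, and none passed the test. Rubcn (chromosome 16: 32821703 to 32877766, minus strand) encodes Rubicon, which slows autophagosome maturation and is needed for LC3-associated phagocytosis. It stood at 66.9, 72.3 and 65.2 CPM in KO and at 55.7, 64.2 and 58.0 CPM in WT, so that the genotypes did not overlap. The gap between the lowest KO and the highest WT library was small beside the spread within each genotype, and the log2 fold change was 0.20 ± 0.08 with an interval of 0.03 to 0.37 (limma with Benjamini-Hochberg adjustment, adjusted p = 0.866).

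Becn1 (chromosome 11: 101285952 to 101302286, minus strand), the core subunit, stood at 97.8, 92.8 and 93.7 CPM in KO and at 92.0, 101.2 and 94.0 CPM in WT. Its genotypes were interleaved, with a log2 fold change of −0.01 and an interval of −0.16 to 0.13. Since 43.9% of the Becn1 exon model in GENCODE M21 overlaps Cntd1 on the opposite strand, and no source used here gives the strand setting of the counting, reads over the overlap may belong to either gene. Pik3r4, the regulatory subunit VPS15, stood at 47.6, 52.9 and 48.1 CPM in KO and at 42.2, 49.2 and 46.4 CPM in WT, with WT replicate 2 above KO replicates 1 and 3 and a log2 fold change of 0.11 ± 0.08. The kinase Pik3c3 had −0.02, and the partners that direct the complex, Atg14, Uvrag and Ambra1, had 0.04, 0.02 and 0.02.

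None of the 5 genes of phagophore growth, which supply lipid and membrane, passed the test. Atg2a (chromosome 19: 6241668 to 6262335, plus strand), a lipid transfer protein, stood at 41.4, 48.0 and 38.4 CPM in KO and at 33.8, 39.0 and 36.7 CPM in WT. KO replicate 2 was well above the rest, KO replicate 3 lay under WT replicate 2, and the log2 fold change was 0.21 ± 0.10. Wipi1, which reads the lipid mark, stood at 23.4, 30.2 and 28.5 CPM in KO and at 26.0, 23.8 and 25.8 CPM in WT, where KO replicate 1 was the lowest of the 6. Its log2 fold change was 0.11 ± 0.10. Atg9a, a scramblase on membrane vesicles, had 0.08, and Atg2b and Wipi2, the second copies of the lipid transfer and lipid-reading genes, had −0.01 and −0.02.

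The 9 conjugation genes had log2 fold changes from −0.12 to 0.14, with 6 positive. Atg4b (chromosome 1: 93751500 to 93790610, plus strand), the protease that primes LC3 and GABARAP proteins, stood at 44.8, 46.4 and 43.0 CPM in KO and at 38.4, 43.4 and 39.7 CPM in WT. Only KO replicate 3 and WT replicate 2 crossed, and the log2 fold change was 0.14 ± 0.07. Atg10, the E2-like enzyme that joins ATG12 to ATG5, stood at 8.64, 7.78 and 9.62 CPM in KO and 9.03, 9.66 and 9.82 CPM in WT, with a log2 fold change of −0.12 ± 0.10. Of the other enzymes, Atg7, the E1-like activator, had 0.05 and Atg3, the E2-like enzyme for LC3, had 0.05. Atg12 had 0.09, Atg5 had −0.06 and their partner Atg16l1 had −0.03. The proteases Atg4c and Atg4d, relatives of Atg4b, had 0.00 and 0.06.

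The ATG8 family, the ubiquitin-like proteins that coat the membrane, was led by Gabarap. Gabarap (chromosome 11: 69991143 to 69994951, plus strand) stood at 399.2, 407.6 and 382.6 CPM in KO and at 326.8, 374.7 and 352.5 CPM in WT. All 3 KO libraries lay above all 3 WT libraries, at 1.13 times the WT mean, with a log2 fold change of 0.18 ± 0.07 and an interval of 0.01 to 0.34 (limma with Benjamini-Hochberg adjustment, adjusted p = 0.866). Its relative Gabarapl1 stood at 62.0, 62.5 and 59.8 CPM in KO and at 56.2, 65.6 and 51.5 CPM in WT, where WT replicate 2 was the highest of the 6.

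Map1lc3b (LC3B), the usual marker protein of autophagosomes, stood at 63.2, 71.5 and 67.9 CPM in KO and at 56.5, 67.9 and 62.3 CPM in WT. The genotypes overlapped, and the log2 fold change was 0.12 ± 0.08. Map1lc3a (LC3A) was low, at 7.24, 9.54 and 6.66 CPM in KO and at 6.82, 8.14 and 7.54 CPM in WT, and Gabarapl2 (GATE-16) stood at 14.1, 12.3 and 15.5 CPM in KO and at 15.5, 16.0 and 13.98 CPM in WT. Both had overlapping genotypes, with log2 fold changes of 0.04 ± 0.14 and −0.11 ± 0.10.

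All 5 cargo receptor genes had positive log2 fold changes, from 0.01 to 0.24, with a median of 0.15, and none passed the threshold. Calcoco1 (chromosome 15: 102706777 to 102722178, minus strand), a receptor for the turnover of endoplasmic reticulum, stood at 28.6, 33.5 and 30.1 CPM in KO and at 24.2, 27.5 and 25.7 CPM in WT. The genotypes did not overlap, the KO mean was 1.19 times the WT mean, and the log2 fold change of 0.24 ± 0.09 had an interval of 0.04 to 0.44 (limma with Benjamini-Hochberg adjustment, adjusted p = 0.866). With 1 library left out the Calcoco1 estimate ranged from 0.18 to 0.29.

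Sqstm1 (chromosome 11: 50199366 to 50210827, minus strand), which encodes the receptor p62, stood at 717.4, 538.9 and 538.7 CPM in KO and at 466.7, 684.2 and 481.3 CPM in WT. One library of each genotype, KO replicate 1 and WT replicate 2, stood far above the other 4. Optn (optineurin), a receptor for mitochondria and bacteria, stood at 13.5, 13.9 and 11.8 CPM in KO and at 9.73, 15.3 and 9.18 CPM in WT, again with WT replicate 2 high. These were the 2 members whose highest library was over 1.5 times the lowest. The log2 fold change of Sqstm1 was 0.15 ± 0.17, and it was 0.32 with WT replicate 2 left out and 0.01 with KO replicate 1 left out. That of Optn was 0.21 ± 0.18, and it was 0.43 with WT replicate 2 left out and 0.09 with WT replicate 3 left out. The level of 14 interferon-stimulated genes moved with them in part: in log2 units around the mean of the 6 libraries, the list median stood at 0.96 (replicate 1), −0.92 (replicate 2) and 0.19 (replicate 3) for KO, and at −0.69, 0.91 and −0.48 for WT. Some markers of other cell types were also high in KO replicate 1 and WT replicate 2, and others were not. Itgax, the dendritic cell marker that passed the filter, stood at 90.5, 58.5 and 48.6 CPM in KO and at 40.9, 145.8 and 41.6 CPM in WT. Mmp9, on the osteoclast list, stood at 29.8, 19.0 and 12.5 CPM in KO and at 3.94, 46.9 and 8.98 CPM in WT. On the log2 scale used above, the 4 osteoclast-list markers that passed the filter had medians of 0.24 in KO replicate 1 and 0.26 in WT replicate 2. Ctsk, among them, was higher in KO replicate 3 (1.91 CPM) than in KO replicate 1 (1.44 CPM). In the same 2 libraries the neutrophil markers were low, at −0.90 and −0.48. The B cell marker that passed did not single them out, with −0.10 and −0.17 there. Its lowest value was −0.37, for WT replicate 1, and KO replicate 2 had −0.12. Replicate 3 of either genotype was higher for this marker, with 0.42 for KO and 0.33 for WT. The part of interferon signalling or of other cell types in the Sqstm1 and Optn values was not tested. The other receptors were steadier, with Nbr1 at 0.07 ± 0.06 and Tax1bp1 at 0.01 ± 0.07 on the log2 fold change scale.

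The fusion step was represented by a tethering and a SNARE gene. Vps18 (chromosome 2: 119288740 to 119298453, plus strand), a core subunit of the HOPS tether, stood at 119.1, 127.0 and 105.4 CPM in KO and at 97.7, 112.8 and 101.8 CPM in WT. KO replicate 3 lay under WT replicate 2, and the log2 fold change was 0.17 ± 0.09. Stx17, the SNARE that lets a closed autophagosome fuse with a lysosome, stood at 38.1, 38.6 and 39.2 CPM in KO and at 39.4, 39.8 and 37.4 CPM in WT. Its highest library was 1.06 times its lowest, the smallest such ratio among the 46 genes, and its log2 fold change was −0.01 with an interval of −0.15 to 0.14.

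**Figure D2:**
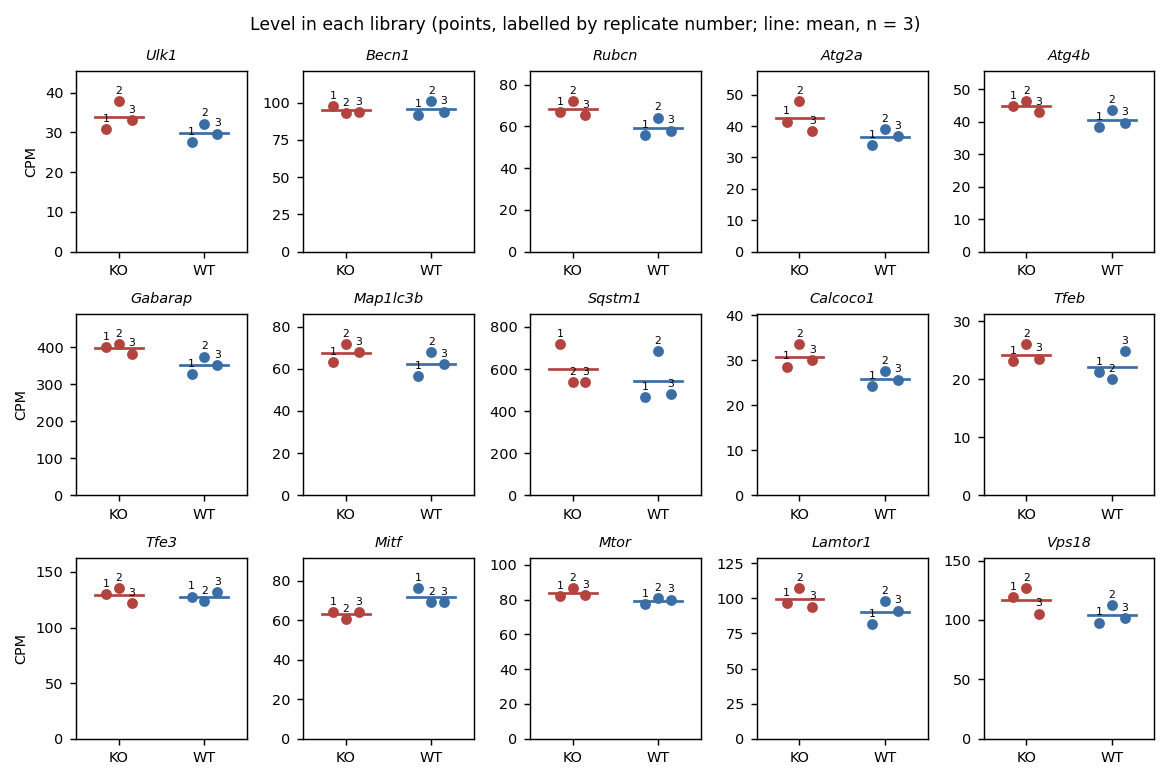
CPM in each library (points, numbered by replicate) and the mean of 3 (line) for 15 of the genes, with each axis starting at 0. KO and WT points lie close together throughout. In Rubcn, Gabarap, Calcoco1 and Mtor all KO points lie above all WT points, in Mitf all lie below, and in Sqstm1 KO replicate 1 and WT replicate 2 lie above the other libraries.

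Levels of different genes were compared per kilobase (kb) of exon, with the exon models of GENCODE M21 (GRCm38), whose summed exons can be longer than the transcripts a cell uses. Gabarap was the highest of the 46 at 190.5 CPM per kb in WT (177.2 to 203.2 over 3 libraries), followed by Sqstm1 at 162.1 (139.1 to 203.9), and the ranges of these neighbours overlapped. Gabarapl1 at 28.7 CPM per kb (25.6 to 32.6) and Lamtor1 at 28.1 (25.4 to 30.4) came next and also overlapped each other. Within the ATG8 family Map1lc3b followed at 8.28 CPM per kb (7.51 to 9.04), above Gabarapl2 at 6.52 (6.01 to 6.88) and Map1lc3a at 6.35 (5.77 to 6.89), whose ranges overlapped. In the TFEB family Tfe3 stood at 13.8 CPM per kb in WT (13.3 to 14.2), Mitf at 11.5 (11.1 to 12.3) and Tfeb at 3.89 (3.54 to 4.38), with no overlap between the 3. This order was the same in KO, at 13.96, 10.2 and 4.27 CPM per kb, again with no overlap between genes. Among the initiation kinases Ulk2 lay at 11.8 CPM per kb (10.9 to 13.0) and Ulk1 at 4.59 (4.25 to 4.96). Optn at 3.04 and Atg4d at 2.76 CPM per kb were the lowest of the 46, and their ranges overlapped. Part of the exon model overlaps a gene of the opposite strand for Sqstm1 (17.3%), Gabarapl1 (28.3%), Lamtor1 (18.7%) and Atg4d (19.3%). With the strand setting unknown, their levels per kb may include reads of those genes.

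**Figure D3:**
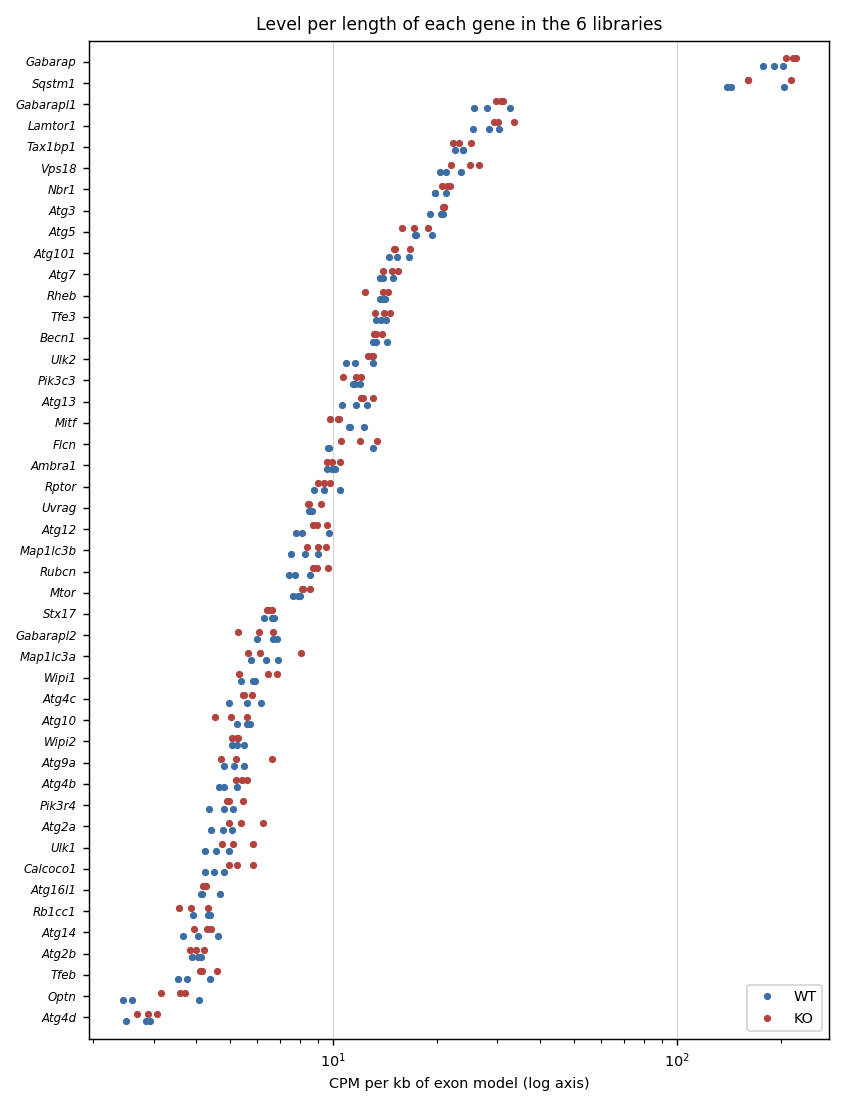
CPM per kb of exon model, on a log axis, for the 46 genes in the 3 WT (blue) and 3 KO (red) libraries, ordered by the WT mean. Gabarap and Sqstm1 stand at 190.5 and 162.1 CPM per kb in WT, far above the next gene, Gabarapl1, at 28.7, and KO and WT points of a gene lie together.

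As a group the genes differed between libraries of 1 genotype. On the log2(CPM + 1) scale, relative to each gene's mean over the 6 libraries, the median member stood at 0.01 (replicate 1), 0.08 (replicate 2) and 0.02 (replicate 3) for KO, and at −0.08, 0.04 and −0.04 for WT, so that WT replicate 2 lay above KO replicates 1 and 3. KO replicate 2 was the highest library for 24 of the 46 genes, or 52.2%, against 25.1% of all tested genes, and WT replicate 1 was the lowest for 21, or 45.7%, against 24.6%. The 10 macrophage markers had their lowest medians in the same libraries, at −0.17 in WT replicate 1 and −0.11 in WT replicate 3, against 0.08 in WT replicate 2 and 0.12, 0.10 and −0.03 in KO. The 4 neutrophil markers that passed the filter went the other way, with 0.59, −0.48 and 0.58 in WT and −0.90, 0.02 and 0.19 in KO. The part of cell makeup or maturation in these differences was not tested. Map1lc3a, Atg9a and Atg2a were among the 24 genes highest in KO replicate 2, which is one of the libraries with almost no Xist. WT replicate 2, the other such library, was the highest for 11 of the 46 genes (23.9%, against 16.7% of all tested genes). A link between Xist and these levels was not tested.

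**Figure D4:**
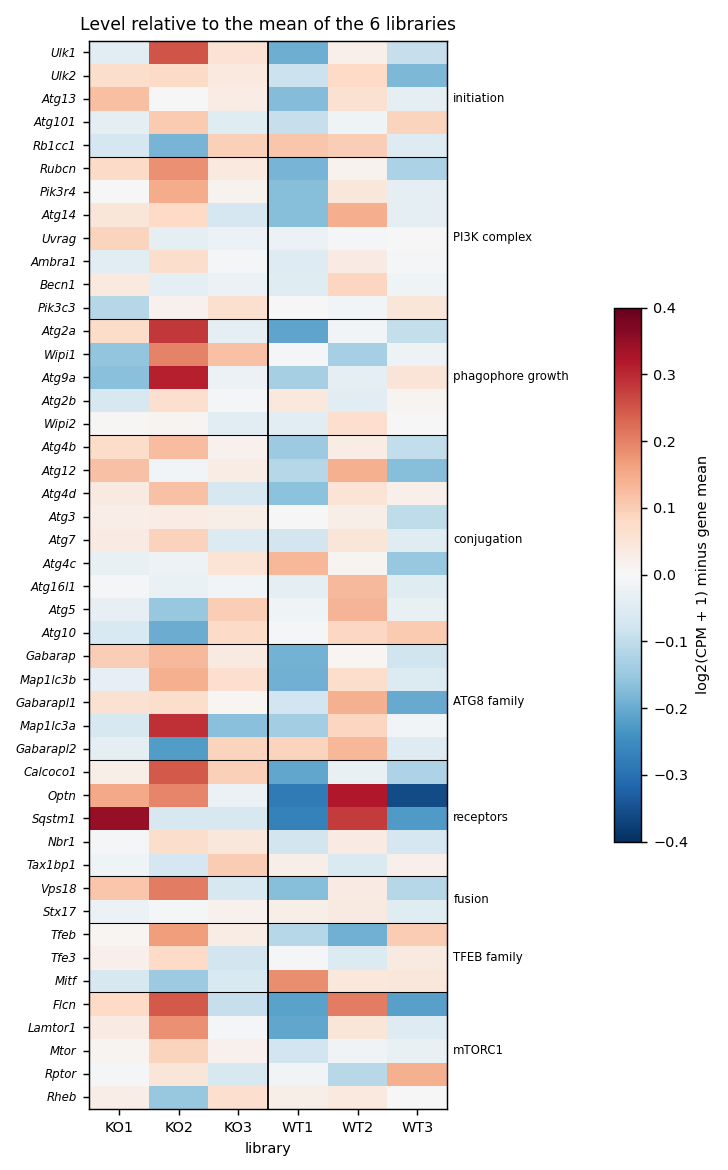
Level of each gene in each library, as log2(CPM + 1) minus the gene's mean over the 6 libraries, with red above and blue below the mean. KO replicate 2 is the highest library for 24 of the 46 genes, and WT replicate 1 is the lowest for 21.

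Genes of the same pathways outside the 46 gave a similar picture. In 6 lists of further autophagy, fusion, nutrient-sensing and AMPK genes and of TFEB regulators, 110 genes were tested and 0 passed the threshold, with 6 at an unadjusted limma p under 0.05 (5.45%, against 4.13% of all tested genes). Of these, 3 were higher and 3 lower in KO, against 1.68% and 2.44% of all tested genes. The genotypes did not overlap in 11.8% of the 110 genes, against 9.95% of all tested genes. These were 8 genes higher and 5 lower in KO, against 4.41% and 5.55%. Here and below, the gene named for each list is the one with its smallest unadjusted p, and so an extreme of the list. The 17 other core autophagy genes had a median of 0.05, with Zfyve1, a marker of the sites where phagophores form, at 0.22 ± 0.11. Other receptors and their regulators had 0.04 over 18 genes, with the kinase Tbk1, which activates receptors by phosphorylation, at −0.12 ± 0.06 and lower in all KO libraries than in any WT library. Other tethering and fusion genes had 0.05 over 20 genes, with the SNARE Stx8 at 33.8, 29.9 and 33.3 CPM in KO and 27.6, 29.2 and 26.98 CPM in WT, a log2 fold change of 0.20 ± 0.08 without overlap.

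Further mTORC1 and nutrient-sensing genes had a median of 0.07 over 34 genes. Among them Rragd, a Rag GTPase gene known as a target of TFEB-family factors, stood at 6.76, 5.11 and 5.40 CPM in KO and at 2.497, 5.62 and 2.36 CPM in WT. WT replicate 2 lay within the KO range while the other WT libraries were lower, and the log2 fold change was 0.65 with an interval of 0.07 to 1.24 (limma with Benjamini-Hochberg adjustment, adjusted p = 0.866). The AMPK genes, which code for the energy sensor that activates ULK1, had a median of −0.01 over 10 genes, with the regulatory subunit Prkab2 at 8.60, 9.32 and 9.80 CPM in KO and 12.2, 10.9 and 11.2 CPM in WT. Its genotypes did not overlap, and the log2 fold change was −0.28 ± 0.09. Other TFEB-family genes and regulators had a median of −0.07, with 9 of 11 negative. Zkscan3, described as a repressor of autophagy genes, stood at 45.0, 43.2 and 42.2 CPM in KO and at 51.5, 48.5 and 49.5 CPM in WT, without overlap (log2 fold change −0.19 ± 0.06, limma with Benjamini-Hochberg adjustment, adjusted p = 0.866).

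Lysosome genes reported to carry CLEAR elements showed the widest shift among these lists other than the interferon-stimulated genes. Over 29 genes the median was 0.17 in log2 fold change, with 26 positive, 0 past the threshold and 0 at an unadjusted limma p under 0.05. Atp6v0d1, a subunit of the proton pump, had the smallest unadjusted p of the list. It stood at 199.9, 224.4 and 193.1 CPM in KO and at 167.9, 193.8 and 181.4 CPM in WT, a log2 fold change of 0.18 ± 0.08. By library the list median was 0.13 (replicate 1), 0.07 (replicate 2) and 0.00 (replicate 3) for KO, and −0.21, 0.12 and −0.13 for WT, the same order of WT libraries as for the autophagy genes. The macrophage markers had medians of 0.12, 0.10 and −0.03 in KO and −0.17, 0.08 and −0.11 in WT, close to those of this list. The 2 progenitor markers that passed the filter differed from each other in WT. Cd34 ran the other way from the lysosome list, at 77.3, 28.9 and 74.1 CPM in WT replicates 1 to 3. Cdk6 did not, at 693.1, 714.5 and 595.6 CPM. The median of both markers was 0.54, −0.14 and 0.40 in WT and −0.24, −0.42 and −0.13 in KO. The part of cell makeup in the values of the lysosome list was not tested.

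**Figure D5:**
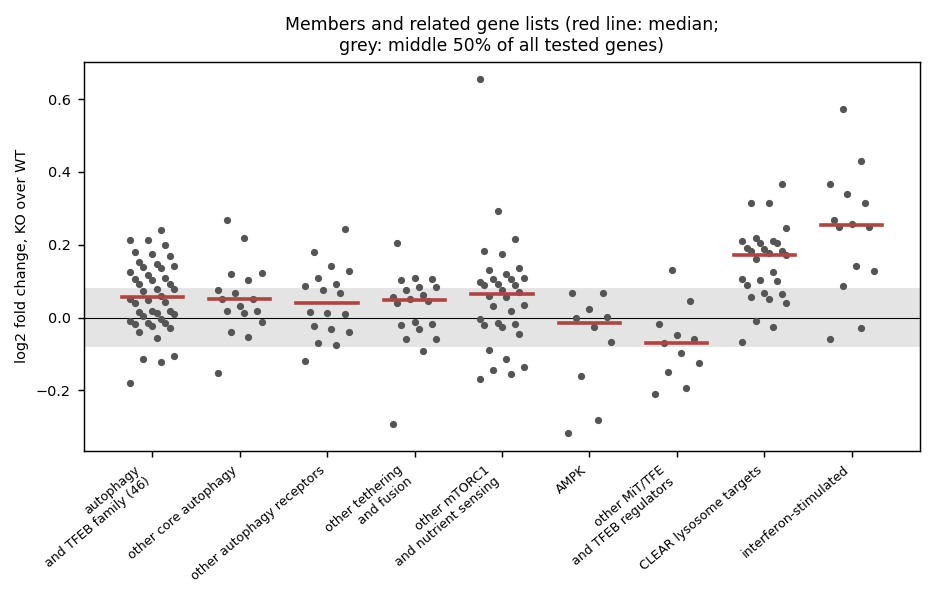
Log2 fold change of KO over WT for the 46 genes and for 8 related lists, 1 point per gene, with the list median as a red line and the middle 50% of all tested genes in grey (−0.08 to 0.08). The 46 genes have a median of 0.06, the CLEAR lysosome list one of 0.17 and the interferon-stimulated list one of 0.25.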

How the data were processed

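Per the labels' protocols, RNA was extracted with a Direct-zol kit and made into mRNA libraries with a KAPA kit. The submitters' processing notes name FastQC 0.11.15, HISAT2 2.1.0, Cufflinks, Trimmomatic 0.36 and HTSeq 0.11.0, with roles, genome build, annotation and strand setting not given in the sources used here. A single table was deposited by the authors, with log2 CPM per gene and library, on library sizes they had scaled, together with their own unadjusted p-values and log2 fold changes. Decimal marks of values of size 1 or more had been lost. They were restored by requiring whole reads, which were found within 1e-06 for 100% of genes in every library. As a check, limma-voom on these reads gave p-values within a relative gap of 6.99e-13 of those the authors deposited. By the authors' unadjusted p, 4 of the 46 genes were under 0.05, against 4.31% of the 16830 genes with a readable value.

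Because the columns hold log2 CPM, limma 3.58.1 (eBayes with an intensity trend, R 4.3.3) was fitted to log2(CPM + 1) of genes that reached 1 CPM in 3 or more libraries, with genotype as the only term, two-sided, with Benjamini-Hochberg adjustment over the 12118 genes. One read was worth 0.0277 to 0.0400 CPM. Tested on simulated reads for these 12118 genes, the KO against WT fit called 72.0% of 1.5-fold, 97.3% of 2-fold and 100% of 4-fold changes, with 11 false calls. The simulated reads had the same dispersion for every gene and no shifts shared by the genes of a library. The real libraries differed in both respects, so these shares may not hold for them. Libraries of a genotype differed by more than sampling noise (chi-square per degree of freedom 12.4 to 49.9), so none were merged. Values by library are printed for members with an unadjusted p under 0.05, the pair with the smallest p in each role, and a fixed set of core genes. Positions and exon lengths come from GENCODE M21 (GRCm38), matched by Ensembl identifier, which may not be the authors' build. For 7 members over 10% of the exon model is shared with another gene, which lies on the opposite strand for 6. The members and lists were chosen with earlier results of these data known.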

Additional observations from a re-analysis of the deposited data

How the results depend on the processing

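No member was called in any of 15 alternative fits, where the smallest adjusted p was 0.204 (Optn, without KO replicate 2 and WT replicate 2 together), and the median over members stayed between 0.04 and 0.09. With 2 genes called over all tested genes, the count was 1 with no filter on low values, with a filter of 5 CPM and with limma-voom, 1 to 8 with 1 library left out (8 without WT replicate 2), and 24 without KO replicate 2 and WT replicate 2 together. Members without overlap numbered 5, and 5 to 22 with 1 library left out, where 13.4% to 30.1% of all tested genes showed no overlap and the members' share was below that of all tested genes in 4 of 6 fits. Without KO replicate 2 and WT replicate 2 together they numbered 24 (52.2%, against 42.8% of all tested genes), and 8 members had an unadjusted p under 0.05 (17.4%, against 11.4%).

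Of the 46 genes, 25 kept the sign of their log2 fold change in all 15 alternatives. With 1 library left out, estimates near 0 crossed it: Becn1 ranged from −0.041 to 0.027, Map1lc3a from −0.095 to 0.136, Stx17 from −0.035 to 0.008 and Tfe3 from −0.018 to 0.058. Without both libraries with almost no Xist, the log2 fold change was 0.041 for Becn1, 0.007 for Gabarapl2, −0.041 for Map1lc3a, 0.009 for Stx17, −0.041 for Tfe3, 0.023 for Tfeb and −0.006 for Wipi1. The cause was not tested. These fits rest on fewer samples.

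The replicate number was also fitted as a block. It gave 0 called members and 2 called genes, the same counts as without it, and 4 members at an unadjusted p under 0.05, with Atg2a in place of Gabarap. Same-numbered libraries correlated at −0.216, −0.134 and 0.14 in their deviations. No sample correlated best with its own number, so the numbers were not taken as pairs. With 3 libraries per genotype, some simulated 1.5-fold changes were not called, so changes of that size and smaller could be missed.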
